A study of Gallus gallus with 3 samples.

Results

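The genes described here are 6 genes known from intestine and pancreas, GUCA2B, NKX6-1, RFX6, SLC2A2, TSPAN8 and SPP1, out of 13008 named genes measured in chick endoderm. They were chosen by their high signal in mid/hindgut endoderm on these same arrays, so the values below are a description and none of them is tested. Each gene is represented on the array by 1 probe set, a group of short probes read together, and all 6 probe sets were found by gene symbol. Endoderm is the germ layer that forms the lining of the gut and the epithelium of liver and pancreas. RNA came from chick (Gallus gallus) embryos, and each of 3 tissues was a single pool, gathered at 4 hour intervals within 1 day, run with 5 µg of total RNA on 1 Affymetrix Chicken Genome Array. Mid/hindgut endoderm was taken at Hamburger-Hamilton stages 8 to 10, from gut behind the region fated to become small intestine. Foregut endoderm was taken at stages 10 to 11, in front of the anterior intestinal portal. Early endoderm was the endoderm layer of 500 embryos at stages 4 to 5. The labels name no genotype, treatment or chicken strain. The later tissues were separated from mesenchyme after 30 minutes in 0.03% collagenase and early endoderm was lifted off with a needle, so stage, position and dissection cannot be told apart. With n = 1 array per tissue, no difference has a replicate check, a standard deviation between samples or a p-value.

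The 6 genes cover several functions of the later gut. GUCA2B encodes uroguanylin, a small secreted peptide that activates the receptor guanylate cyclase C on intestinal epithelium and so raises cyclic GMP and the release of salt and water. SLC2A2 encodes the glucose transporter GLUT2 of intestine, liver and pancreatic beta cells, and TSPAN8 a membrane protein of the tetraspanin family found in intestinal epithelium. NKX6-1 is a homeobox transcription factor of pancreatic progenitors and beta cells, and also of the ventral neural tube. RFX6 is a winged-helix transcription factor needed in mouse for endocrine cells of the pancreas. SPP1 encodes osteopontin, a secreted phosphoprotein of bone matrix and of many epithelia that binds integrins. In the embryo the intestine and the pancreas both arise from gut endoderm, the pancreas as buds near the boundary of foregut and midgut.

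Signals are given on the MAS5 scale after the arrays were brought to a common trimmed mean, and a signal of 22.1, the 40th percentile of chicken probe sets, served as the floor below which values were not ordered. A fold against a signal below the floor was computed against the floor and is written "at least". Of the chicken probe sets, 60.8% lay above the floor in mid/hindgut, 60.2% in foregut and 58.9% in early endoderm, against 1.31% to 2.76% of 689 viral probe sets. Probe noise was estimated in 4134 genes from how far 2 probe sets of the same gene disagreed on the log2 difference between tissues. The standard deviation of that disagreement, divided by the square root of 2, gives the spread for 1 probe set. This spread was 0.31 for mid/hindgut against early, 0.36 for mid/hindgut against foregut and 0.43 for foregut against early. That spread covers probe noise above the floor and leaves out variation between pools, and none of the 6 genes has a second probe set to check it. The endoderm markers EPCAM, at 8896 in mid/hindgut, 9297 in foregut and 5357 in early endoderm, and FOXA2, at 868, 1023 and 1488, were above the floor on every array. Of 11 endoderm markers on the array, 10 were above the floor on at least 1 array, and GATA4 was below it on all. FOXA1 was below the floor in mid/hindgut and early endoderm, and HNF4A in foregut. Of these markers 3 of 9 were at least 2-fold higher and 2 lower in mid/hindgut than in early endoderm. Against foregut 4 of 10 were higher and none lower. The shares over all genes were 8.12% and 5.13% against early endoderm, and 5.74% and 6.37% against foregut.

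All 6 genes had their highest signal in mid/hindgut, and in each the mid/hindgut signal was at least 8.67-fold above the next highest tissue. The background is that 8.12% of 10745 genes were at least 2-fold higher in mid/hindgut than in early endoderm, 5.74% of 10906 were at least 2-fold higher than in foregut, and 2.61% of 11136 exceeded both. At 4-fold above both the share was 0.763%, or 85 genes, 6 of them the genes described here. In the opposite direction 5.13% of genes were at least 2-fold lower than in early endoderm and 6.37% lower than in foregut. Since mid/hindgut signal chose the 6 genes, nothing is read from their count against this background. All 6 were above the floor in mid/hindgut, 3 in foregut and 4 in early endoderm.

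**Figure D1:**
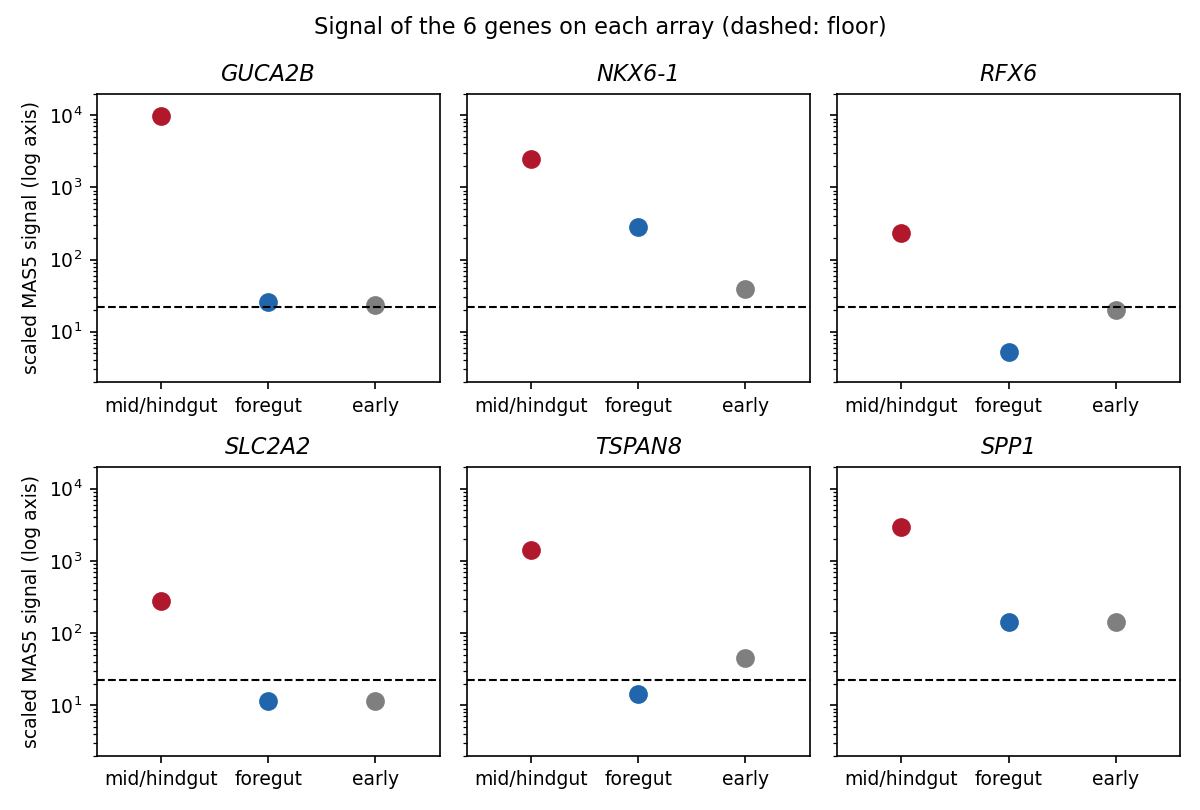
Scaled MAS5 signal (log axis) of each of the 6 genes on the mid/hindgut, foregut and early endoderm arrays, with 1 point per array and the floor of 22.1 as a dashed line. All mid/hindgut points stand well above the floor, whereas NKX6-1 and SPP1 alone are also well above it in foregut.

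GUCA2B had a signal of 9887 in mid/hindgut, 25.7 in foregut and 23.4 in early endoderm. The other tissues were just above the floor, so the gene was close to undetected outside mid/hindgut. It was 385-fold higher in mid/hindgut than in foregut and 422-fold higher than in early endoderm, though the folds are inexact because noise near the floor was not estimated. Among genes above the floor in both tissues compared, these increases ranked 1 of 9635 against foregut and 1 of 9381 against early endoderm. FLRT1, below the floor in foregut and so left out of the first ranking, was at least 435-fold higher there. Current RefSeq annotation of the gene gives GUCA2A, the symbol of guanylin, as a synonym, so the name does not by itself separate the peptides. Of the summed signal of the 3 arrays, 99.5% came from mid/hindgut.

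The gene of the peptide's receptor was also highest in mid/hindgut. GUCY2C, which encodes guanylate cyclase C, was at 98.2 in mid/hindgut, 27.0 in foregut and 21.6 in early endoderm. That is 3.64-fold above foregut and at least 4.43-fold above early endoderm, although a higher floor, at the 60th percentile, left both differences within 2-fold, at 0.70 in log2. Its second probe set read 82.2 in mid/hindgut, 3.61 in foregut and 21.0 in early endoderm. PDE5A, a phosphodiesterase that breaks down cyclic GMP, was at 220.4 in mid/hindgut, 99.4 in foregut and 73.0 in early endoderm, 2.22-fold and 3.02-fold higher. When arrays were scaled on hybridisation controls, PDE5A was within 2-fold of foregut, at 0.58. Of the 16 genes of guanylin and cyclic GMP signalling on the array, 10 were above the floor anywhere. GUCA2B, GUCY2C and PDE5A were the 3 at least 2-fold higher in mid/hindgut than in both other tissues, beside 2.61% over all genes. The median log2 difference of the list, GUCA2B included, was 0.38 against early endoderm and 0.40 against foregut, beside 0.03 and −0.02 over all genes. Scaling on hybridisation controls turned the median against foregut to −0.17, beside −0.56 over all genes. The chloride channel gene CFTR and the sodium-proton exchanger gene SLC9A3, which act downstream in the mature intestine, were below the floor on all arrays. PDE9A was the 1 member lower than in foregut, at least 2.50-fold, and was at a difference of 0 when its 4 probe sets were summarised by their median.

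TSPAN8 had a signal of 1419 in mid/hindgut, 14.3 in foregut and 44.8 in early endoderm. It was below the floor in foregut and low but above it in early endoderm. Mid/hindgut was at least 64.1-fold above foregut and 31.7-fold above early endoderm, where it ranked 7 of 9381 measured increases. Genes below the floor in early endoderm, such as HOXA7, at least 128-fold higher in mid/hindgut, are left out of that ranking. Foregut was at least 2.02-fold below early endoderm, or −1.02 in log2. Scaling the arrays on hybridisation controls made that difference −0.90, and a floor at the 60th percentile made it 0.

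Of 27 tetraspanins and partner genes measured, 25 exceeded the floor, and ITGB4, an integrin chain of hemidesmosomes, was the only one besides TSPAN8 at least 2-fold above both other tissues. That is 1 gene besides TSPAN8, beside a share of 2.61% over all genes. ITGB4 was at 286 in mid/hindgut, 86.6 in foregut and 55.2 in early endoderm, 3.30-fold and 5.19-fold higher. TSPAN1 was at 238 in mid/hindgut, 48.4 in foregut and 333 in early endoderm, so it was 4.92-fold above foregut and within 2-fold of early endoderm. UPK1B, a uroplakin of the same family, and CD82 had their highest signals in foregut, at 417 and 469, and mid/hindgut was 3.30-fold and 2.84-fold lower. Mid/hindgut was at least 5.71-fold and 4.16-fold above early endoderm in these genes. Of the 25, TSPAN8 included, 9 were at least 2-fold higher and 1 lower than in early endoderm, beside 8.12% and 5.13% over all genes. Against foregut 4 were higher and 3 lower, beside 5.74% and 6.37%. The median log2 difference of the list, TSPAN8 included, was 0.20 against early endoderm and 0.10 against foregut. Scaling on hybridisation controls made it −0.47 against foregut, beside −0.56 over all genes. Without scaling it was −0.06 against early endoderm, beside −0.22 over all genes.

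SLC2A2 had a signal of 274 in mid/hindgut, 11.6 in foregut and 11.4 in early endoderm. Both other tissues were below the floor and have no order between them. The difference was at least 12.4-fold against each. Among the 22 genes of glucose transport and glucose metabolism on the array, 20 were above the floor. SLC2A2 was the only one at least 2-fold above both other tissues, beside 2.61% over all genes. SLC2A1, the widely expressed transporter GLUT1, was at 1008 in mid/hindgut, 2405 in foregut and 1006 in early endoderm, 2.39-fold lower in mid/hindgut than in foregut. The sodium-coupled intestinal transporter gene SLC5A1 was at 175.5 in mid/hindgut, 38.1 in foregut and 265 in early endoderm. It was 4.60-fold above foregut and within 2-fold of early endoderm. FBP1, an enzyme of gluconeogenesis, followed the same order at 111, 44.2 and 185, and was 2.52-fold above foregut. Scaling on hybridisation controls gave FBP1 a log2 difference from foregut of 0.76 and the floor at the 60th percentile one of 0.88, both within 2-fold. The median of the list, SLC2A2 included, was 0.00 in both comparisons. Scaling on hybridisation controls made it −0.45 against foregut, beside −0.56 over all genes.

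SPP1 had a signal of 2948 in mid/hindgut, 144 in foregut and 140.2 in early endoderm. Unlike the other genes it had nearly equal signals, well above the floor, in the other tissues, which differed by 0.04 in log2, within the probe spread. Mid/hindgut was 20.5-fold above foregut and 21.0-fold above early endoderm, ranking 6 of 9635 and 13 of 9381 measured increases. Both rankings leave out genes below the floor in the other tissue, such as HOXA7, at least 128-fold higher than in each, so its place among all genes is lower. Osteopontin receptors and bone matrix genes gave 11 others above the floor. None of them was at least 2-fold higher in mid/hindgut than in both other tissues, beside 2.61% over all genes. ITGAV, the alpha V chain, was at 502 in mid/hindgut, 265 in foregut and 195 in early endoderm, 2.57-fold above early endoderm and within 2-fold of foregut. ITGA4 had the reverse order, at 292 in mid/hindgut, 1041 in foregut and 6380 in early endoderm. It was 3.56-fold and 21.8-fold lower in mid/hindgut, and the median of its 3 probe sets gave log2 differences of −0.98 and −2.49. ITGA9 was 2.95-fold lower than in foregut and within 2-fold of early endoderm. ITGA8 was at least 2.88-fold above early endoderm and within 2-fold of foregut. The median over probe sets brought the ITGA9 and ITGA8 differences within 2-fold. Of the 12 genes above the floor among osteopontin receptors and bone matrix genes, 4 were higher than in early endoderm, SPP1 among them, and 1 lower. Against foregut 1 was higher, SPP1 itself, and 4 were lower. The shares over all genes were 8.12% higher and 5.13% lower against early endoderm, and 5.74% and 6.37% against foregut. The related bone matrix genes IBSP and MEPE, and the receptor gene CD44, were below the floor on all arrays.

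NKX6-1 had a signal of 2436 in mid/hindgut, 281 in foregut and 38.5 in early endoderm. It was the only one of the 6 genes with a foregut signal clearly between those of the other tissues. Mid/hindgut was 8.67-fold above foregut and 63.3-fold above early endoderm, ranking 25 of 9635 and 3 of 9381 measured increases. HOXA7, at least 128-fold higher than in each, is among the genes at the floor that these rankings leave out. Foregut was 7.30-fold above early endoderm, where 10.6% of 10800 genes were at least 2-fold higher and 6.49% lower. NKX6-1 was the 1 gene of the 6 higher in foregut than in early endoderm, and TSPAN8 the 1 lower. The other 4 differed by 0.13 or less in log2 or were below the floor in both.

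RFX6 had a signal of 232 in mid/hindgut, 5.29 in foregut and 20.1 in early endoderm. The values outside mid/hindgut were below the floor, and the gene was at least 10.5-fold higher in mid/hindgut than in either. No other RFX gene on the array was at least 2-fold higher. RFX3 was at 129 in mid/hindgut, 121 in foregut and 83.0 in early endoderm, RFX2 and RFX7 were also within 2-fold, and RFX4 and RFX8 were below the floor throughout. NKX6-2, the paralog of NKX6-1, was at 97.4 in mid/hindgut, 42.8 in foregut and 46.7 in early endoderm. Its folds over foregut and early endoderm were 2.28 and 2.09. Scaling on hybridisation controls gave log2 differences of 0.62 and 0.96 and a floor at the 60th percentile gave 0.69 in both, all within 2-fold. Each of the 5 other scalings tried left NKX6-2 within 2-fold of early endoderm.

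**Figure D2:**
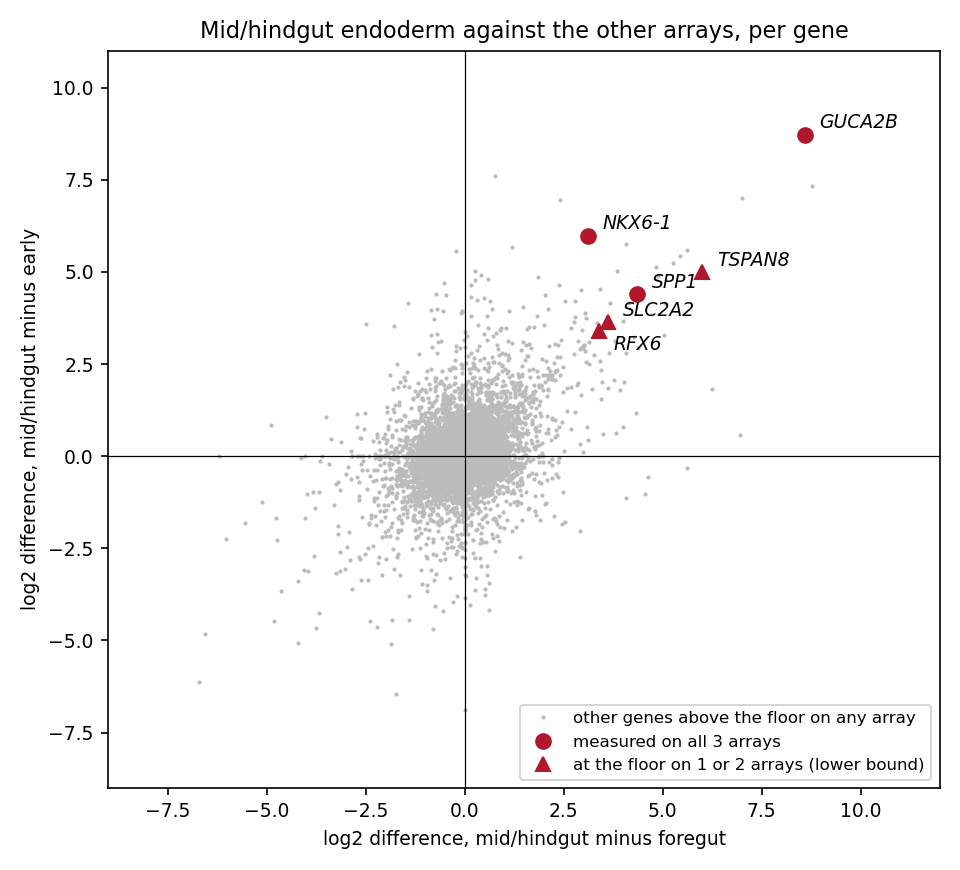
Log2 difference of mid/hindgut minus foregut (horizontal axis) against mid/hindgut minus early endoderm (vertical axis) for genes above the floor on at least 1 of the 3 arrays. The 6 genes (red) lie in the upper right, with GUCA2B at 8.59 and 8.72, and red triangles mark those of the 6 genes below the floor in at least 1 tissue. Their differences are lower bounds, except that of TSPAN8 from early endoderm, which was measured on both arrays. The axes share the mid/hindgut array, so the diagonal spread of points is partly built in.

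Transcription factors of pancreas development differed in both directions. Of 23 measured by named probe sets, 17 exceeded the floor. Against early endoderm 7 of 15 measured were at least 2-fold higher in mid/hindgut and 2 were lower, with a median log2 difference of 0.94. Against foregut 7 of 17 were higher and 2 lower, and the median was 0.88. NKX6-1 and RFX6, chosen for their mid/hindgut signal, are among the higher genes in each count and are included in both medians. Of the 15 other genes above the floor, 3 were at least 2-fold higher in mid/hindgut than in both other tissues, beside 2.61% over all genes. The shares over all genes were 8.12% higher and 5.13% lower against early endoderm, and 5.74% and 6.37% against foregut. NR5A2, a nuclear receptor of pancreas, liver and intestine, was at 535 in mid/hindgut, 92.4 in foregut and 28.7 in early endoderm, 5.79-fold and 18.6-fold higher, and a second probe set gave 133, 27.6 and 10.9. MNX1, a homeobox gene required for the dorsal pancreas in mouse and also known from motor neurons and notochord, was at 577 in mid/hindgut, 47.0 in foregut and 161 in early endoderm, 12.3-fold and 3.59-fold higher. ISL1 went the other way between the later tissues, at 290 in mid/hindgut, 1914 in foregut and 130.5 in early endoderm, 6.60-fold lower than in foregut. MEIS2 was likewise 4.99-fold lower than in foregut, at 115 against 576. A second MEIS2 probe set read 67.4 in mid/hindgut against 96.4 in foregut, within 2-fold, and the median over its probe sets gave −1.42 in log2. PDX1 and PTF1A were not analysed here.

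Of 27 hormone, digestive enzyme and secretory genes of mature pancreas on the array, 14 were below the floor on all 3 arrays, among them the glucagon gene GCG, the carboxypeptidase gene CPA1 and the beta cell zinc transporter gene SLC30A8. None of 12 measured genes was at least 2-fold higher in mid/hindgut than in early endoderm and 2 were lower, AMY1A by 4.35-fold and CHGA by 2.04-fold, beside shares of 8.12% higher and 5.13% lower over all genes. None of 13 was higher than in foregut, and ABCC8 was 3.25-fold lower, beside shares of 5.74% higher and 6.37% lower over all genes. The insulin gene INS was at 37.3 in mid/hindgut, under the floor in foregut and at 41.5 in early endoderm. The medians were −0.19 against early endoderm and −0.06 against foregut.

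Intestinal epithelium genes were more often higher than lower. Of 43 measured, 29 exceeded the floor. In mid/hindgut 11 of 25 measured were at least 2-fold higher than in early endoderm and 1, APOA1, was lower, with a median of 0.75. Against foregut 11 of 29 were higher and none was lower. Over all genes 8.12% were higher and 5.13% lower than in early endoderm, and 5.74% and 6.37% than in foregut. The median against foregut was 0.41, and −0.12 when arrays were scaled on hybridisation controls, beside −0.56 over all genes. CDX2, the homeobox factor that sets intestinal identity, was at 1694 in mid/hindgut, under the floor in foregut and at 479.7 in early endoderm, at least 76.5-fold and 3.53-fold higher. The median of its 3 probe sets gave 4.39 in log2 against foregut, and 1 of them read 79.8 in mid/hindgut, 93.7 in foregut and 49.5 in early endoderm, without that contrast. CDX1 was at 264, 23.4 and 173, 11.3-fold above foregut and within 2-fold of early endoderm. ISX, an intestine-specific homeobox gene, was at 314 in mid/hindgut, 24.9 in foregut and 45.4 in early endoderm, 12.6-fold and 6.92-fold higher. The brush border peptidase gene DPP4 was at 196 in mid/hindgut, under the floor in foregut and at 22.7 in early endoderm, at least 8.84-fold and 8.63-fold higher. Its other 2 probe sets were below the floor on every array.

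In all, 7 of 29 intestinal epithelium genes above the floor exceeded both other tissues at least 2-fold, beside 2.61% over all genes. They were CDX2, ISX, DPP4, MTTP, CDH17, APOB and ELF3. The last 4 were named after their values were seen. APOB reached 75.2 in mid/hindgut on 1 of 7 probe sets, and the others read at most 27.4 there. ELF3 was at 93.6 in mid/hindgut, 46.0 in foregut and 32.4 in early endoderm, just above 2-fold over foregut. MTTP, which loads lipid onto lipoproteins, was at 150.5 in mid/hindgut and below the floor elsewhere, at least 6.80-fold higher. CDH17, an intestinal cadherin, was at 97.5 in mid/hindgut and at least 4.41-fold higher. A second CDH17 probe set read 38.4 in mid/hindgut, less than 2-fold above the floor, and was below the floor elsewhere. Several genes of mature absorptive and goblet cells were below the floor on all arrays, among them VIL1 of the brush border, the fatty acid binding protein genes FABP1 and FABP2, the sucrase-isomaltase gene SI and the mucin gene MUC2. These lists and the 6 genes were drawn up with earlier results of these arrays known, so their direction is not independent evidence.

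**Figure D3:**
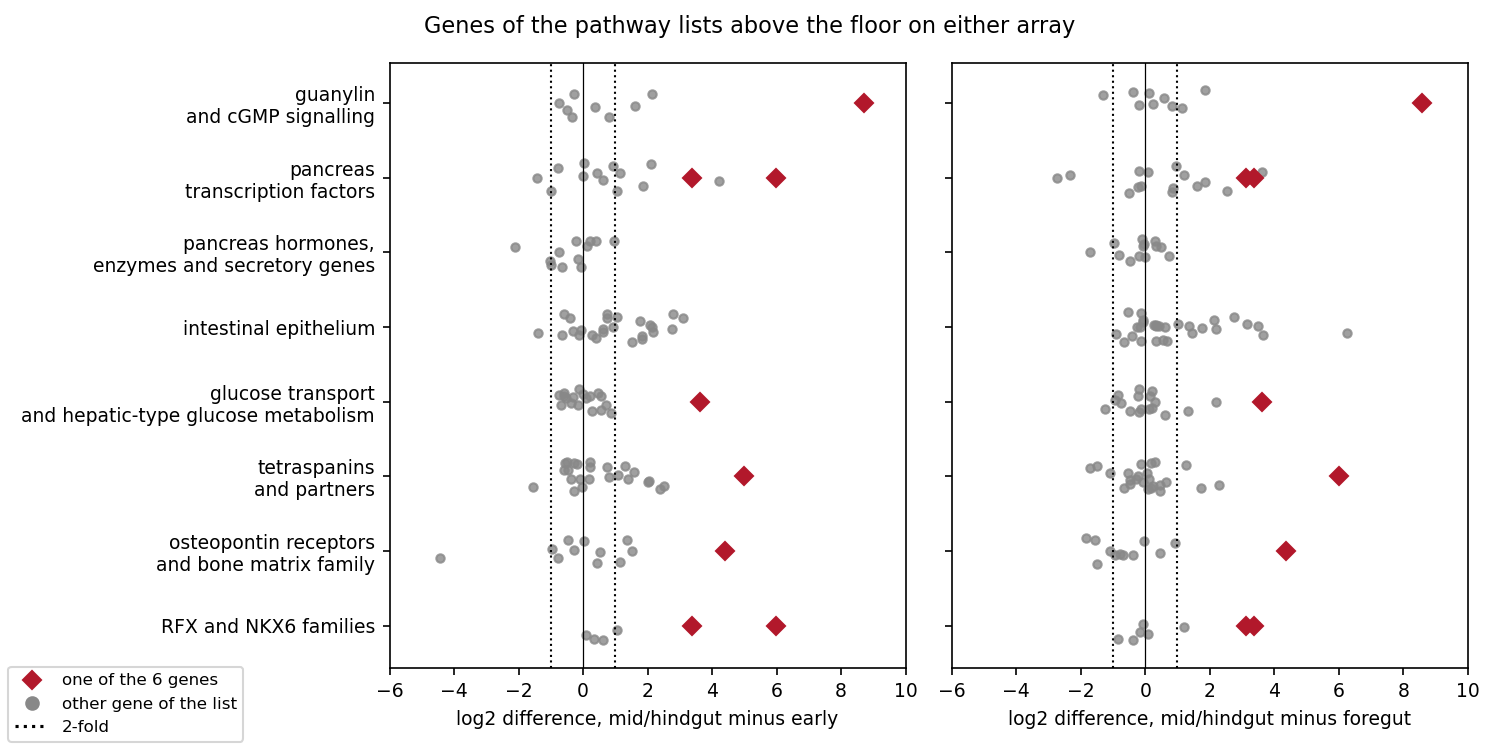
Log2 difference of mid/hindgut minus early endoderm (left) and mid/hindgut minus foregut (right) for each gene of 8 pathway lists that was above the floor on either array, with 1 point per gene, dotted lines at 2-fold and values below the floor set to it. The 6 genes (red diamonds, NKX6-1 and RFX6 in 2 lists) lie to the right of the other genes of their lists, except that NR5A2, at 4.22 against early endoderm, lies between RFX6 and NKX6-1, and MNX1, at 3.62 against foregut, lies to the right of both.

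The 6 genes also differed among themselves in pattern. After each gene was centred on its own mean over the 3 arrays, RFX6 and SLC2A2 were the closest pair, at a Euclidean distance of 0.20 in log2, because both were at the floor in foregut and early endoderm. SLC2A2 and SPP1 followed at 0.61. GUCA2B lay farthest from the others, between 2.71 from TSPAN8 and 4.30 from RFX6. By the same measure over the 3 arrays, the genes most like GUCA2B were FLRT1 at 1.22, HOXA7 at 1.35 and HOXA6 at 2.49. FLRT1, a leucine-rich repeat membrane protein, was at 9632 in mid/hindgut, under the floor in foregut and at 60.4 in early endoderm.

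Nearest to TSPAN8 were HOXA4 at 0.72, HOXA6 at 0.73 and HOXA9 at 0.73, and nearest to SPP1 were HOXB7 at 0.07, PALMD at 0.18 and SLC7A9 at 0.42. On the probe set used, HOXB7 was at 768 in mid/hindgut, 40.3 in foregut and 37.8 in early endoderm. There it was above the floor on every array as SPP1 was, with folds of 19.1 and 20.3 where SPP1 had 20.5 and 21.0. A second HOXB7 probe set read 19.3, 1.35 and 2.16 in the same order, below the floor on every array. HOXC9 at 0.06 and SULT1C3 at 0.20 stood nearest to RFX6 besides SLC2A2 at 0.20. For SLC2A2 the order was RFX6 at 0.20, SULT1C3 at 0.22 and HOXC9 at 0.26. NKX6-1, the gene with a middle level in foregut, was most like TTR at 0.89, HBZ at 0.96 and FGB at 0.98. TTR carries thyroid hormone, HBZ is an embryonic haemoglobin chain and FGB a fibrinogen chain. TTR and SULT1C3 each have a second probe set as well, and it was below the floor on every array. Values below the floor were set to it before distances were taken, so distances to genes at the floor, and their order, depend on it. PALMD and SLC7A9 were below the floor in foregut and early endoderm, where SPP1 was measured. HOXC9, RFX6 and SLC2A2 were below it in both tissues, so their distances compare mid/hindgut signals alone. With 3 arrays many genes share such a pattern, and likeness says nothing of a common function.

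Markers of other cell types differed between the same arrays. In bulk tissue, more cells of a type and more RNA per cell cannot be told apart. Beside the counts below, 8.12% of all genes were higher and 5.13% lower than in early endoderm, and 5.74% and 6.37% than in foregut. Of the blood markers, 7 of 8 genes were at least 2-fold higher in mid/hindgut than in early endoderm and none was lower. Against foregut 4 of 7 were higher and 1, CA2, was lower. Their summed signal was 6025 in mid/hindgut, 3348 in foregut and 341 in early endoderm, and EPB42 was below the floor in mid/hindgut. HBZ, among the genes most like NKX6-1, belongs to this list, at 1536, 297 and 61.9 in the same order. Endothelial markers had 12 of 13 genes higher than in early endoderm and none of 13 higher than in foregut, with sums of 9629, 7612 and 359.6 and ROBO4 below the floor on all arrays. The part of blood and endothelial cells in the signal of the 6 genes was not tested.

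Yolk sac and extraembryonic endoderm markers, which include plasma protein genes also made by liver, had 4 of 11 genes higher and 2 lower than in early endoderm. Against foregut 3 of 13 were higher and 1 lower. The sums were 12203 in mid/hindgut, 5824 in foregut and 6762 in early endoderm, and AFP and ALB were below the floor in mid/hindgut. TTR, at 4718, 282 and 87.5 in the same order, and FGB, at 2845, 785 and 98.2, belong to this list. Both are among the genes most like NKX6-1. The part of such cells in the signal of the 6 genes was not tested. Markers of macrophages and osteoclasts, cells known for SPP1, had none of 6 genes higher and 2 lower than in early endoderm, and none of 7 higher and 1 lower than in foregut. Their sums were 350.5 in mid/hindgut, 402 in foregut and 666 in early endoderm. PTPRC, SPI1, TLR4 and LYZ were below the floor on all arrays. The part of such cells in the SPP1 signal was not tested.

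Neural tube and motor neuron markers, cells known for NKX6-1 and MNX1, had 1 of 13 genes higher and 1 lower than in early endoderm, and 3 of 11 higher and 4 lower than in foregut. Their sums were 875 in mid/hindgut, 1394 in foregut and 1057 in early endoderm. Most of these markers were detected: of 15 with a probe set, 11 exceeded the floor in mid/hindgut, 10 in foregut and 9 in early endoderm. SOX1 and PAX7 were below it in every tissue. Of the 13 others, 1 was at least 2-fold higher in mid/hindgut than in both other tissues, beside 2.61% over all genes. The part of neural cells in the NKX6-1 and MNX1 signals was not tested. Notochord markers summed to 3014 in mid/hindgut, 916 in foregut and 4259 in early endoderm, with 2 of 6 genes higher and 1 lower in each comparison. Gut and lateral mesenchyme markers had 5 of 14 genes higher and 4 lower than in early endoderm, and 1 of 16 higher and 8 lower than in foregut. Their sums were 3773 in mid/hindgut, 8219 in foregut and 6773 in early endoderm, with FOXF1, HAND1 and ACTA2 below the floor on all arrays. Paraxial and tail bud mesoderm markers had none of 7 genes higher and 2 lower than in early endoderm, and 2 higher and 1 lower than in foregut, with sums of 1448, 702 and 2335. The part of notochord and paraxial mesoderm cells in the differences from foregut was not tested.

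**Figure D4:**
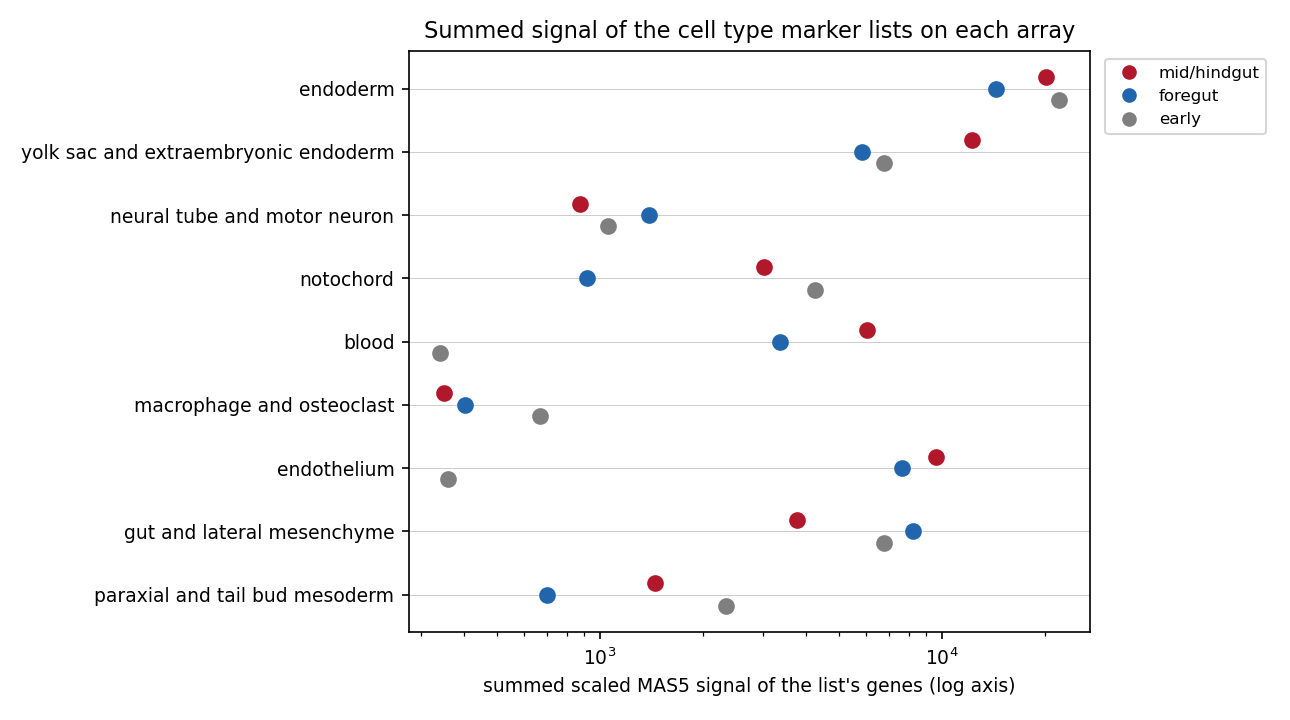
Summed scaled MAS5 signal (log axis) of the genes of each cell type marker list on the mid/hindgut, foregut and early endoderm arrays, with 1 point per array. Blood and endothelium sums are low in early endoderm and high in both later tissues. Blood, endothelium and yolk sac sums are highest in mid/hindgut. The endoderm, macrophage, neural, notochord, mesenchyme and paraxial mesoderm sums are not highest there.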

How the data were processed

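The deposited values are MAS5 signal intensities on a linear scale, made by the authors, per the submitters' processing notes; the MAS5 version, its settings and detection calls were not given in the sources used here. Each array is 1 pool, so no test was made. Deposited trimmed means (2% cut at each end) were 159.8 in mid/hindgut, 155 in foregut and 191.9 in early endoderm, and arrays were scaled to their mean by 1.06, 1.09 and 0.881. Signals were floored at 22.1 (40th percentile) before log2. The actin 3′ to 5′ ratio was 2.19, 1.69 and 1.55 in the same order.

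Of 37693 chicken probe sets 27166 had 1 gene and 177 listed probe sets had several, which were left out. The gene symbol was updated by gene identifier to the RefSeq table of GRCg7b, and each gene was represented by its probe set of highest average log2 signal after flooring. Named are the 6 genes, the 3 most similar genes of each, and from each list up to 4 others at least 2-fold apart; further genes were named after their values were seen. The members, lists, alternatives and rules were chosen with earlier results of these data known. Scripts (Python 3.11.15, pandas 2.3.3) were tested on simulated data. A planned search of promoters for motifs was not run, and no sequence was used here.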

Additional observations from a re-analysis of the deposited data

How the results depend on the processing

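All 6 genes stayed at least 2-fold higher in mid/hindgut than in either tissue under the 10 alternatives that keep their probe sets, and 4 of 4 did without the probe sets shared between transcripts, where GUCA2B and TSPAN8 have no value. These were 5 other scalings, 3 other floors, the median over probe sets and a 3-fold limit. With 1 probe set per gene the median changes no value, and neither does the 3-fold limit. Neither alternative could therefore bring one of these genes below 2-fold. The log2 difference of mid/hindgut from early endoderm ranged from 7.35 to 8.72 for GUCA2B, 5.33 to 5.98 for NKX6-1, 1.94 to 3.53 for RFX6, 2.18 to 4.59 for SLC2A2, 4.55 to 4.98 for TSPAN8 and 4.13 to 4.39 for SPP1. Against foregut it ranged from 7.35 to 8.63 for GUCA2B, 2.55 to 3.16 for NKX6-1, 1.94 to 4.98 for RFX6, 2.18 to 4.57 for SLC2A2, 4.55 to 6.63 for TSPAN8 and 3.79 to 4.40 for SPP1. The count of these genes lower in foregut than in early endoderm, 1, became 0 with scaling on hybridisation controls, with the floor moved to the 60th percentile, without shared probe sets and at 3-fold, and 2 when the floor was lowered to the 20th percentile, which adds RFX6 at −1.45. Without scaling the median log2 difference of all genes was −0.22 for mid/hindgut against early endoderm and −0.21 for foregut against early. With scaling on hybridisation controls it was −0.56 for mid/hindgut against foregut and 0.51 for foregut against early.

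Counts over all genes moved more. Genes higher in mid/hindgut than in early endoderm numbered 872, or 1385 with the floor at the 20th percentile, 519 at the 60th and 413 at 3-fold, and lower genes 551, or 895, 358 and 246, and 849 without scaling. Genes higher than in foregut numbered 626, or 1015, 401 and 236, and 252 with scaling on hybridisation controls. Lower genes numbered 695, or 1131, 416 and 253, 2289 on hybridisation controls and 449 over the median of probe sets. Foregut exceeded early endoderm in 1145 genes, or 742 without scaling, 2465 on hybridisation controls, 728 with the floor at the 60th percentile and 484 at 3-fold, and lay below it in 701, or 1210, 380 and, at 3-fold, 286. Genes above both others in mid/hindgut numbered 291, or 455, 191, 128 at 3-fold and 152 on hybridisation controls. Of 39 calls of 2-fold among named list genes, 8 fell within 2-fold with the floor at the 60th percentile. Over the median of probe sets 6 did, and on hybridisation controls 4. None changed sign under any of 10 alternatives, although only 36 of the 39 had a value without shared probe sets. The causes were not tested. No paired analysis was possible because each tissue has 1 array.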

Other observations

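Some further genes among the 85 at least 4-fold above both other tissues in mid/hindgut are named here, picked after their values were seen. They do not summarise the 85, which also include HOX genes such as HOXA7, haemoglobin genes such as HBZ and plasma protein genes such as TTR. SLC7A9 and SLC3A1 encode the light and heavy chain of a transporter for cystine and basic amino acids in intestine and kidney. SLC7A9 was at 658 in mid/hindgut and below the floor in foregut and early endoderm, at least 29.7-fold higher, and a second probe set gave 211 in mid/hindgut, 3.46 in foregut and 1.92 in early endoderm. SLC3A1 was at 542 in mid/hindgut, 61.4 in foregut and 95.3 in early endoderm, 8.83-fold and 5.69-fold higher. LGALS2, a galectin, was at 1422 in mid/hindgut, 43.3 in foregut and 146 in early endoderm, and APOH, a plasma glycoprotein made by liver, was at 1748, 61.3 and 50.0. UGT1A1, which conjugates bilirubin, was at 238 in mid/hindgut, under the floor in foregut and at 39.8 in early endoderm.

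The protein-coding genes next to the 6 genes in the order of the GRCg7b annotation were looked up after the values were seen. Of 12 neighbours 11 were on the array and 10 above the floor, and none was at least 2-fold above both other tissues in mid/hindgut, which is near the share of 2.61% over all genes. Higher than in early endoderm by at least 2-fold were 2 of the 10, beside 8.12% over all genes. They were CDS1 beside NKX6-1, at 276 in mid/hindgut, 184 in foregut and 47.8 in early endoderm, and LGR5 beside TSPAN8. LGR5 was at 134, 106 and 37.5 in the same order. DISP3 beside GUCA2B was 2.06-fold lower than in early endoderm, at 74.9, 48.6 and 154 in that order. Over all genes 5.13% were at least 2-fold lower than in early endoderm. None of the 10 was at least 2-fold higher than in foregut, beside 5.74% over all genes. MEPE, beside SPP1 and of the same family of bone matrix proteins, was below the floor on all arrays.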
